A study of Mus musculus with 3 samples.

Results

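The 44 genes described here encode the transporters, enzymes and regulators that carry glucose through glycolysis, the pentose phosphate pathway and the first step of pyruvate use. They were chosen by function, with earlier results of these data known, as 43 listed mouse symbols plus the gene named *Pkm* or *Pkm2*. All 44 were found among the 22698 Ensembl genes of the data. RNA-seq was performed on melan-a cells, an immortalized line of mouse melanocytes, in 3 bioreplicates labelled 1, 3 and 4. The labels give the line a C57BL/6J background and call the cells melanocytes from Ink4a-ARF-/- mice, so the loss of these cell cycle inhibitors was shared by all samples. Every replicate was grown without a treatment in RPMI 1640 with 10% fetal bovine serum, 200 nM of the phorbol ester 12-O-tetradecanoylphorbol 13-acetate and 200 pM cholera toxin. There was 1 condition and no control group, and the labels do not say whether the replicates came from separate cultures, so the spread between them may be technical.

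Levels are FPKM, meaning fragments per kilobase of gene per 1000000 reads, which the authors scaled by TMM (a trimmed mean of log ratios between libraries) and gave to 2 decimals. Since FPKM is per length, levels of different genes were compared within a library. The spacing of low values put the scaled library sizes of replicates 1, 3 and 4 at 53900000, 46900000 and 66400000 reads. The 8 melanocyte markers examined had mean levels between 22.1 and 3144 FPKM. Markers of 8 other cell types summed to at most 1.95 FPKM per type and replicate, and *Col1a1*, a fibroblast collagen gene at a mean of 1.54 FPKM, was the only one at 1 FPKM or more in all replicates. In bulk RNA, fewer cells that express a gene cannot be told apart from less RNA per cell.

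Glycolysis splits glucose into pyruvate in the cytosol and yields ATP and NADH on the way. Pyruvate then becomes lactate, which regenerates NAD+, or enters mitochondria through pyruvate dehydrogenase, which the pyruvate dehydrogenase kinases inhibit. The pentose phosphate pathway branches off at glucose 6-phosphate and makes NADPH and ribose. Most of these steps can be catalysed by several isozymes, encoded by separate genes and used in different tissues, such as the muscle, liver, brain or testis forms.

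The genes stood high in this melanocyte line. The number at 1 FPKM or more in all replicates was 36 of 44 (81.8%), against 44.1% of all 22698 genes. At 10 FPKM or more in all replicates there were 25 (56.8%, against 21.7% of all genes), and at 100 FPKM or more there were 12 (27.3%, against 2.17%). The median of the mean levels was 16.8 FPKM, compared with 0.277 FPKM over all genes, and 14 of the 44 ranked among the 1000 highest genes. Together they held between 1.67% and 2.06% of the summed FPKM of a replicate. These are descriptions of a list chosen by function with earlier results of these data known. No test was made, and genes are not replicates.

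**Figure D1:**
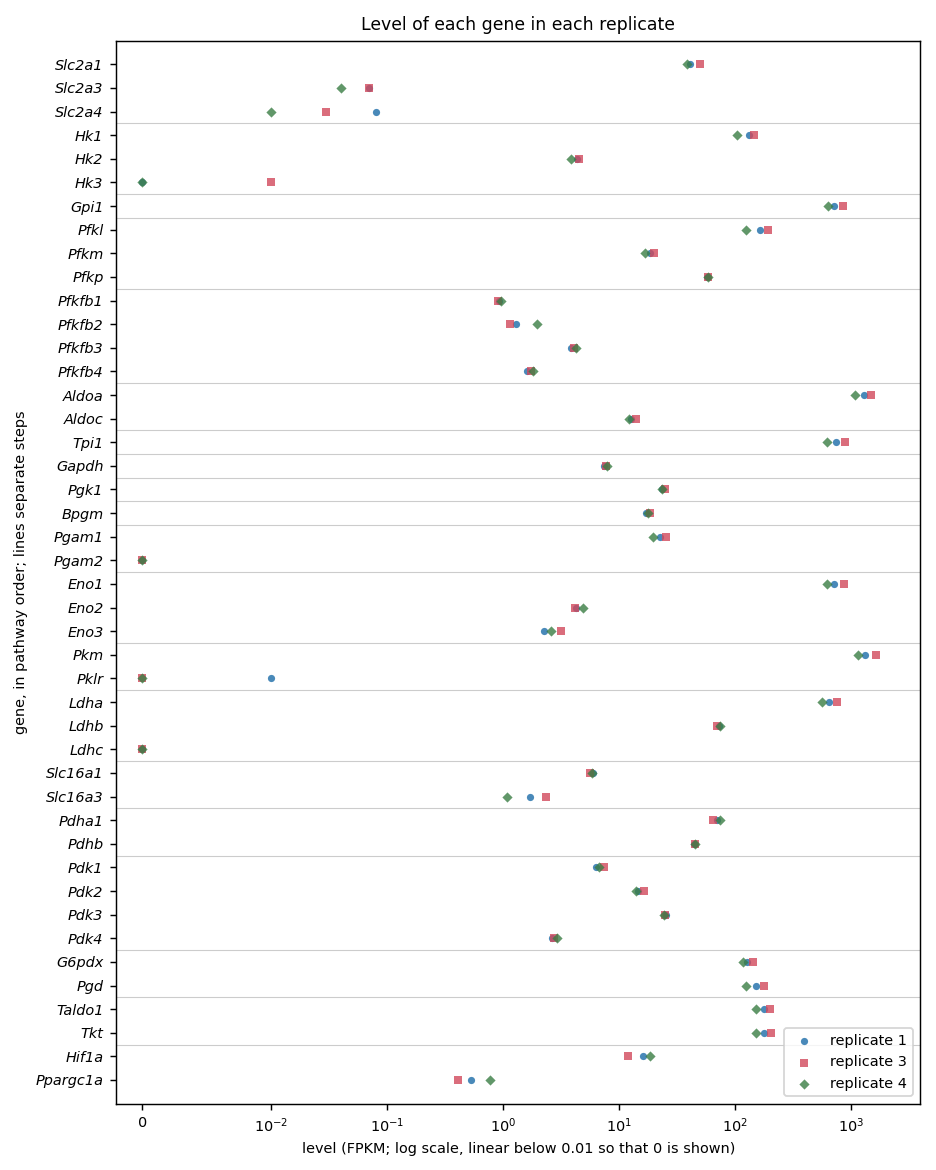
Level of each of the 44 genes in replicates 1, 3 and 4 (x axis, FPKM on a log scale that turns linear below 0.01 so that 0 can be drawn), in pathway order (y axis, lines separate the steps). *Pkm* and *Aldoa* lie above 1000 FPKM in all replicates, while *Pgam2* and *Ldhc* lie at 0 and *Gapdh* lies below 8.

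Of the 3 glucose transporters in the list, 1 was above 1 FPKM. *Slc2a1* (ENSMUSG00000028645, chr4:118781316-118809935 in mm9), the widely expressed basal transporter GLUT1, was at 41.3, 50.1 and 38.8 FPKM in replicates 1, 3 and 4. *Slc2a3*, the high-affinity transporter best known from neurons, was at 0.07, 0.07 and 0.04 FPKM, which corresponds to 27, 24 and 19 reads. *Slc2a4*, the insulin-responsive transporter of muscle and fat, was at 0.08, 0.03 and 0.01 FPKM, and in replicate 4 it was below the level of 3 reads. *Slc2a1* thus accounted for 99.8% ± 0.12 (SD, n = 3) of the summed FPKM of the 3 genes. The order of *Slc2a3* and *Slc2a4* differed between replicates, so they were not separated.

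Among hexokinases, which trap glucose in the cell as glucose 6-phosphate, *Hk1* led. It was at 132, 148 and 104 FPKM, against 4.37, 4.59 and 3.88 FPKM for *Hk2*, the form of muscle, fat and many tumour cells. *Hk1* was 30.2-fold, 32.1-fold and 26.9-fold above *Hk2* in the 3 replicates and held 96.7% ± 0.28 (SD, n = 3) of the step. *Hk3* was listed at 0, 0.01 and 0 FPKM, under 3 reads in every replicate. *Gpi1*, the isomerase that makes fructose 6-phosphate and the only gene listed for its step, was at 714, 854 and 636 FPKM.

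Phosphofructokinase, the committed step of glycolysis, was the step of the main pathway with the most mixed isozyme use. The liver form *Pfkl* was at 164, 194 and 124 FPKM, the platelet form *Pfkp* at 57.9, 59.4 and 59.4 FPKM, and the muscle form *Pfkm* at 18.5, 20.02 and 16.8 FPKM. The order was the same in all replicates, and the levels of the 3 genes did not overlap. The shares of *Pfkl* were 68.3%, 71.0% and 62.0%, so its lead over *Pfkp* moved from 3.27-fold in replicate 3 to 2.10-fold in replicate 4, while *Pfkp* itself varied by a coefficient of variation of only 1.49%. On average *Pfkp* held 25.1% ± 4.0 and *Pfkm* 7.8% ± 0.54 (SD, n = 3).

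The 4 bifunctional enzymes that set fructose 2,6-bisphosphate, the activator of phosphofructokinase, were all low. *Pfkfb3*, the inducible form with high kinase activity, was at 3.90, 4.10 and 4.32 FPKM. *Pfkfb4* followed at 1.62, 1.75 and 1.81 FPKM, *Pfkfb2* at 1.29, 1.15 and 1.99 FPKM and *Pfkfb1* at 0.92, 0.91 and 0.97 FPKM. *Pfkfb3* held 49.9% ± 2.2 (SD, n = 3) of the family and was 2.34-fold to 2.41-fold above *Pfkfb4*. *Pfkfb2* passed *Pfkfb4* in replicate 4 only, so the places of these genes were not separated by the replicates.

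In the lower part of glycolysis broadly expressed forms of the enzymes dominated, while the muscle forms *Eno3* and *Pgam2* were minor. *Aldoa* (ENSMUSG00000030695, chr7:133938748-133944265), the aldolase of muscle and most tissues, was at 1293, 1514 and 1097 FPKM. *Aldoc*, the brain aldolase, was at 12.7, 14.0 and 12.3 FPKM, so *Aldoa* held 99.0% ± 0.098 (SD, n = 3). *Tpi1*, which interconverts the 3-carbon products of aldolase, was at 747, 902 and 622 FPKM.

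*Eno1* (ENSMUSG00000063524, chr4:149610830-149622988), the alpha enolase, was at 716, 880 and 626 FPKM, while the neuronal *Eno2* was at 4.25, 4.24 and 4.96 FPKM and the muscle form *Eno3* at 2.25, 3.19 and 2.62 FPKM. *Eno1* held 99.0% ± 0.19 (SD, n = 3) of the step and was 168-fold, 208-fold and 126-fold above *Eno2*. Pyruvate kinase had the highest deposited level of all 44 genes. *Pkm* (ENSMUSG00000032294, chr9:59504383-59527182, named *Pkm2* in the annotation used here) was at 1343, 1648 and 1166 FPKM, and the liver and red cell form *Pklr* was listed at 0.01, 0 and 0 FPKM, under 3 reads in every replicate. Values are per gene, so the M1 and M2 forms of *Pkm*, which differ by an alternative exon, were not resolved.

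*Pkm* was 1.04-fold to 1.09-fold above *Aldoa* in each replicate, but the deposited levels of both genes overlapped across replicates. Scaled to the words of the mRNA that are found nowhere else, as described below, this ratio was larger. It was 1.51, 1.58 and 1.55 with words of 50 bases and 1.22, 1.28 and 1.25 with words of 90 bases. The deposited levels of *Tpi1*, *Eno1* and *Gpi1* also overlapped, with means between 735 and 757 FPKM. *Ldha* came next at a mean of 662 ± 97.2 FPKM (SD, n = 3), and its values overlapped with those of all 3 genes.

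Lactate dehydrogenase, which converts pyruvate to lactate and back, was mainly of the A type. *Ldha* (ENSMUSG00000063229, chr7:54096845-54110997) was at 650, 765 and 572 FPKM and *Ldhb*, the heart-type subunit, at 73.2, 70.0 and 75.4 FPKM. *Ldha* held 89.9% ± 1.6 (SD, n = 3), and its ratio to *Ldhb* was 8.88, 10.9 and 7.58, with *Ldha* lowest in the replicate in which *Ldhb* was highest. The testis form *Ldhc*, on the same chromosome at chr7:54116573-54133512, was listed at 0 in all replicates. With 3 reads per library as the limit that a count of 0 allows, *Ldha* was at least 18462-fold higher than *Ldhc*.

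The lactate transporters were low. *Slc16a1*, the broadly expressed monocarboxylate transporter MCT1, was at 6.01, 5.69 and 5.92 FPKM and *Slc16a3*, the lactate exporter MCT4 of glycolytic muscle, at 1.72, 2.34 and 1.09 FPKM. *Slc16a1* was above *Slc16a3* in all replicates, by 3.49-fold, 2.43-fold and 5.43-fold. Its share was 77.7% ± 6.8 (SD, n = 3), and *Slc16a3* had the largest coefficient of variation of the 36 genes at 1 FPKM or more, 36.4%. *Bsg*, which encodes the chaperone basigin that brings these transporters to the membrane and is not among the 44, was at 717, 853 and 620 FPKM.

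The E1 subunits of pyruvate dehydrogenase held an intermediate level with little spread. *Pdha1*, the X-linked gene of the E1 alpha subunit, was at 70.1, 65.3 and 74.5 FPKM and *Pdhb*, of the E1 beta subunit, at 44.2, 45.5 and 45.8 FPKM. The ratio of these partner subunits was 1.55 ± 0.10 (SD, n = 3). Part of the *Pdhb* sequence occurs elsewhere in the genome. When each level was scaled to the 50-base words of the mRNA that are found nowhere else, the ratio was 1.04, 0.94 and 1.07, so *Pdha1* was not above *Pdhb* in every replicate, and with words of 90 bases it was 1.36, 1.23 and 1.40. Of the inhibitory kinases, *Pdk3* was at 25.5, 25.2 and 24.6 FPKM, *Pdk2* at 14.7, 16.4 and 14.2 FPKM, *Pdk1*, a target of hypoxia signalling, at 6.37, 7.42 and 6.83 FPKM, and *Pdk4*, the form induced by fasting, at 2.67, 2.79 and 2.91 FPKM. This order held in every replicate without overlap, with shares of 50.4% ± 1.6, 30.3% ± 1.3, 13.8% ± 0.74 and 5.6% ± 0.34 (SD, n = 3).

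**Figure D2:**
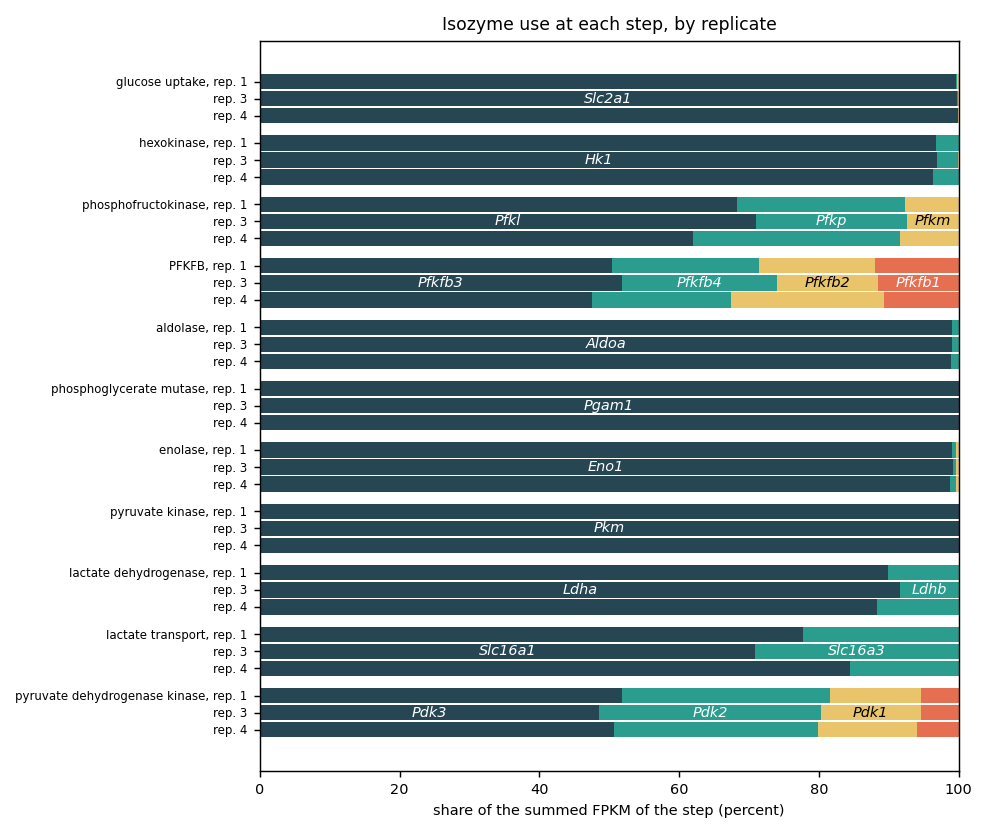
Share of each isozyme in the summed FPKM of its step (x axis, percent), with 1 bar per replicate for each of 11 steps (y axis) and colors in order of the mean share within a step. *Slc2a1*, *Hk1*, *Aldoa*, *Pgam1*, *Eno1* and *Pkm* fill nearly the whole bar, whereas phosphofructokinase, the PFKFB enzymes, lactate transport and the pyruvate dehydrogenase kinases are mixed.

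At all 11 steps with several isozymes in the list, the lowest replicate of the leading gene was above the highest replicate of the gene compared with it. The genes of each pair were the highest and the next by mean level in these same replicates. The direction of the mean difference was therefore set by that choice. The log2 ratio of (FPKM + 1) between these genes had the same sign in 3 of 3 replicates at every step, with the smallest at 0.70 ± 0.096 for *Pdk3* over *Pdk2* (SD, n = 3). Among pairs in which both genes were above 3 reads in all replicates, the largest with this pseudocount was 7.07 ± 0.34 for *Eno1* over *Eno2* (SD, n = 3). An exact two-sided sign-flip permutation test over 3 replicates cannot give less than p = 0.25, and it gave p = 0.25 for each of the 11 pairs, so these differences are stated by their ranges.

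The 4 pentose phosphate genes among the 44 had similar levels. *G6pdx*, the X-linked rate-limiting dehydrogenase of the oxidative branch, was at 128, 143 and 118 FPKM, and *Pgd*, the second dehydrogenase, at 152, 180 and 125 FPKM. In the non-oxidative branch, *Taldo1* was at 178, 204 and 151 FPKM and *Tkt* at 179, 206 and 152 FPKM. *Tkt* and *Taldo1* were at a ratio of 1.01 ± 0.0046 (SD, n = 3) within replicates, although each varied by about 15% between them. Scaled to the 50-base words of the mRNA found nowhere else, *Taldo1* had a mean of 204 FPKM, while *Tkt* stayed at 179 FPKM. With words of 90 bases *Taldo1* was at 178 FPKM. All 4 genes were above 100 FPKM in every replicate, a level that *Aldoa* exceeded severalfold. Of the regulators in the list, *Hif1a*, the oxygen-sensitive subunit of the hypoxia-inducible factor, was at 16.2, 12.1 and 18.6 FPKM and *Ppargc1a*, a coactivator of mitochondrial genes, at 0.53, 0.41 and 0.77 FPKM.

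A further 59 genes of glucose metabolism were listed beside the 44, of which 58 were in the data. Of these 58, 34 were at 1 FPKM or more in all replicates, against 44.1% of all genes, and 18 at 10 FPKM or more, against 21.7%. Another 23 stayed below 1 FPKM in all, for which the share over all genes was not counted. Of the 58, those at a mean of at least 20 FPKM were *Bsg*, *Txnip* (an inhibitor of glucose uptake, 106, 106 and 115 FPKM), *Pgls* (the lactonase between *G6pdx* and *Pgd*, 84.0, 109 and 63.7 FPKM), *H6pd* (the counterpart of *G6pdx* in the endoplasmic reticulum, 47.8, 54.2 and 35.2 FPKM), *G6pc3* (a widely expressed glucose 6-phosphatase, 43.2, 55 and 37.5 FPKM), the oxygen-sensing hydroxylases *Egln1* (31.8, 35.1 and 22.2 FPKM) and *Egln2* (28.8, 33.1 and 22.3 FPKM), and *Dld* (the E3 subunit of pyruvate dehydrogenase, 27.3, 19.3 and 33.0 FPKM). Of other genes of the non-oxidative pentose phosphate branch, *Rpia* was at 10.9, 11.9 and 9.67 FPKM and *Rpe* at 11.8, 9.72 and 12.6 FPKM, far below *Tkt* and *Taldo1*. The nuclear receptor gene *Esrra* was at 16.3, 20.5 and 12.6 FPKM, with a mean above that of *Hif1a*. The testis forms *Pgk2*, *Gapdhs* and *Pdha2*, and *Tktl1*, were listed at 0 in all replicates.

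The enzymes between *Tpi1* and *Eno1* were far below their neighbours. *Gapdh* (ENSMUSG00000057666, chr6:125111871-125116485), glyceraldehyde 3-phosphate dehydrogenase, was at 7.5, 7.7 and 7.96 FPKM. *Pgk1* (ENSMUSG00000062070, chrX:103382439-103399038), the first ATP-producing kinase, was at 23.6, 25.02 and 23.7 FPKM. *Pgam1* (ENSMUSG00000011752, chr19:41986361-41993154), the non-muscle phosphoglycerate mutase, was at 22.5, 25.7 and 19.6 FPKM. *Aldoa* exceeded *Gapdh* 172-fold, 197-fold and 138-fold, *Pgk1* 54.8-fold, 60.5-fold and 46.3-fold, and *Pgam1* 57.4-fold, 59.0-fold and 56.0-fold. The muscle mutase *Pgam2* was listed at 0 in all replicates, which put *Pgam1* at least 337-fold higher with 3 reads per library as the limit. *Bpgm*, which makes 2,3-bisphosphoglycerate and is best known from red cells, was at 17.2, 18.8 and 17.9 FPKM. This was 0.77-fold, 0.73-fold and 0.91-fold of the deposited level of *Pgam1*. Scaled to words of the mRNA found nowhere else, *Pgam1* had a mean of 278 FPKM (50 bases) and 184 FPKM (90 bases). *Bpgm*, whose mRNA shares no such words, kept its level, so its ratio to *Pgam1* was far lower on that scale.

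*Gapdh*, *Pgk1* and *Pgam1* were also the only genes of the 44 whose coding sequence occurred in full elsewhere in the mm9 genome or in transcripts of other genes, when cut into all words of 50 bases. The same held for words of 90 bases. Sequences of 50 bases from exons of *Gapdh* and *Pgam1* are shown because each has exact copies away from its gene, 83 for the *Gapdh* window and 3 for that of *Pgam1*. A sequence of *Eno1* follows with its counterpart in the pseudogene *Gm13699*, and capitals mark the base at which these differ. All are from NCBIM37 (mm9), 5′ to 3′ on the strand of the gene, at chr6:125112916-125112965 (minus strand), chr19:41990098-41990147, chr4:149620712-149620761 and, for the pseudogene, chr2:80677998-80678047.
Gapdh: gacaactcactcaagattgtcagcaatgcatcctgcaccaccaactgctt
Pgam1: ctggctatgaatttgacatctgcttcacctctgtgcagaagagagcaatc
Eno1: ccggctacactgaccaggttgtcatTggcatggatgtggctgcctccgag
Eno1 copy in Gm13699: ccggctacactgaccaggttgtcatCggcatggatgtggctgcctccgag

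The number of places elsewhere that shared at least 100 words of 50 bases was 89 for *Gapdh*, of which 29 overlapped an annotated pseudogene, 32 another gene and 28 no annotated gene. It was 5 for *Ldha*, 3 each for *Pgk1*, *Pgam1*, *Eno1* and *Pkm*, 2 for *Tpi1* and 1 each for *Gpi1*, *Ldhb*, *Pdhb*, *G6pdx* and *Taldo1*. The shared part of the coding sequence was 83.3% for *Eno1*, 43.1% for *Pkm*, 43.1% for *Pdhb*, 35.6% for *Ldhb*, 32.4% for *Gpi1*, 30.9% for *Ldha*, 17.0% for *Aldoa*, 15.2% for *Taldo1*, 13.7% for *Tpi1* and 9.76% for *G6pdx*. It was 0% for 29 of the 44 genes, among them *Slc2a1*, *Hk1*, *Pfkl*, *Pgd* and *Tkt*. *Eno1*, at 741 ± 129 FPKM (SD, n = 3), kept 209 of 1253 coding words of 50 bases that were found nowhere else. *Gapdh*, *Pgk1* and *Pgam1* kept 0.

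Some copies are themselves genes in the data, and reads could be split among them in the counting. For *Gapdh* there were 26 such genes, with means from 0.0633 to 16.3 FPKM that summed to 30.9 FPKM. The highest, *Gm5559*, was at 17.4, 18.9 and 12.5 FPKM, above *Gapdh* itself in each replicate. *Gm1840*, the copy of *Gpi1*, was at 293, 352 and 258 FPKM, and the copy of *Eno1* annotated as a protein-coding gene had a mean of 96.2 FPKM. The levels of *Gapdh*, *Pgk1*, *Pgam1*, *Eno1*, *Pkm*, *Pdhb*, *Ldhb*, *Gpi1* and *Ldha*, which share 30.9% or more of their coding sequence, are therefore uncertain. How reads with several alignments were treated is not given in the sources used here, and the part of shared sequence in these levels was not tested.

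When each level was multiplied by the words of the mRNA over those found nowhere else, *Gapdh* came to 53.7 FPKM, *Pgk1* to 340 FPKM, *Pgam1* to 278 FPKM and *Eno1* to 2664 FPKM. With words of 90 bases the values were 52.2, 252, 184 and 1914 FPKM. *Pkm* came to 2366 FPKM with words of 50 bases and 1625 FPKM with words of 90 bases. Counted on the transcript with the longest coding sequence of each gene, *Eno1* and not *Pkm* was then the highest of the 44 genes. *Gpi1* came to 1071 and 836 FPKM, *Ldha* to 934 and 679 FPKM, *Ldhb* to 110 and 84.2 FPKM and *Pdhb* to 69.3 and 52.6 FPKM. On this scale *Gapdh* was still the lowest of 11 leading glycolytic genes from *Hk1* to *Ldha*, whereas *Pgk1* and *Pgam1* passed *Hk1*, which stayed at 128 FPKM. The scale treats reads from shared words as not counted, which was not tested. Over the 50-base words of all transcripts, the unique part was 73.9% for *Eno1*, 59.4% for *Pkm*, 48.0% for *Gapdh* and 26.3% for *Pgk1*. The places of *Eno1* and *Pgk1* and the scaled level of *Gapdh* therefore depend on the transcripts used. For *Gapdh* the scale rests on 197 unique mRNA words, of 1371 with 50 bases and of 1331 with 90 bases. Whether most *Gapdh* RNA in these cells holds those words was not tested.

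**Figure D3:**
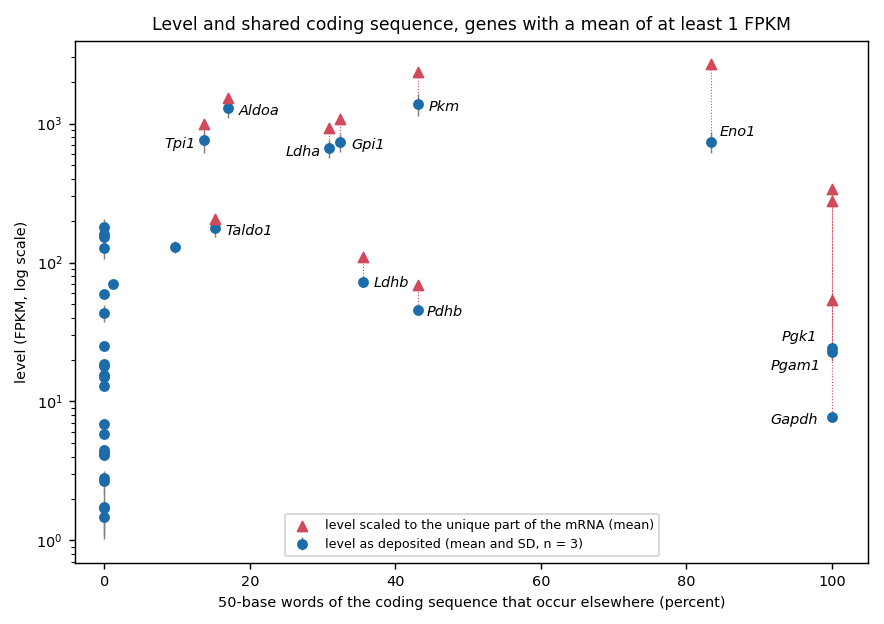
Mean level (y axis, FPKM on a log scale, bars show the SD of 3 replicates) against the percentage of 50-base words of the coding sequence that occur elsewhere (x axis), for genes with a mean of at least 1 FPKM. *Gapdh*, *Pgk1* and *Pgam1* sit at 100% with levels below 25 FPKM, and red triangles give the level scaled to the unique part of the mRNA, for genes at 10% or more.

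The replicates differed in a pattern that many of the genes shared. Of the 36 genes at 1 FPKM or more, 19 were highest in replicate 3 and lowest in replicate 4, against 39.5% of all genes at that level. These were *Slc2a1*, *Hk1*, *Hk2*, *Gpi1*, *Pfkl*, *Pfkm*, *Aldoa*, *Aldoc*, *Tpi1*, *Pgam1*, *Eno1*, *Pkm*, *Ldha*, *Slc16a3*, *Pdk2*, *G6pdx*, *Pgd*, *Taldo1* and *Tkt*. The reverse order was found for 5 genes, *Pfkfb2*, *Eno2*, *Ldhb*, *Pdha1* and *Hif1a*, against 37.2% of all genes. The median log2 ratio of replicate 3 over replicate 4, with 1 FPKM added, was 0.20 over the 36 genes and 0.016 over all 10011 genes at 1 FPKM or more.

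The GC content of the mRNA moved with this ratio. It was between 51.02% and 57.4% in the 19 genes that were highest in replicate 3 and between 41.3% and 54.8% in the 5 with the reverse order. Across the 36 genes, which are not independent replicates and come from the same libraries, Pearson's r between GC content and the log2 ratio was 0.73 and Spearman's rho 0.65. *Hif1a*, with the lowest GC content, had a log2 ratio of -0.58, and *Pfkl* one of 0.64 at 57.1%. *Gapdh*, at 56.6%, did not follow, with a ratio of -0.042. The GC content is that of the whole mRNA, of which 85.6% of 50-base words are shared for *Gapdh*, 92.9% for *Pgk1* and 91.9% for *Pgam1*. Whether the reads counted for these 3 genes came from sequence of that GC content was not tested. The part of GC content in the differences between replicates was not tested.

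**Figure D4:**
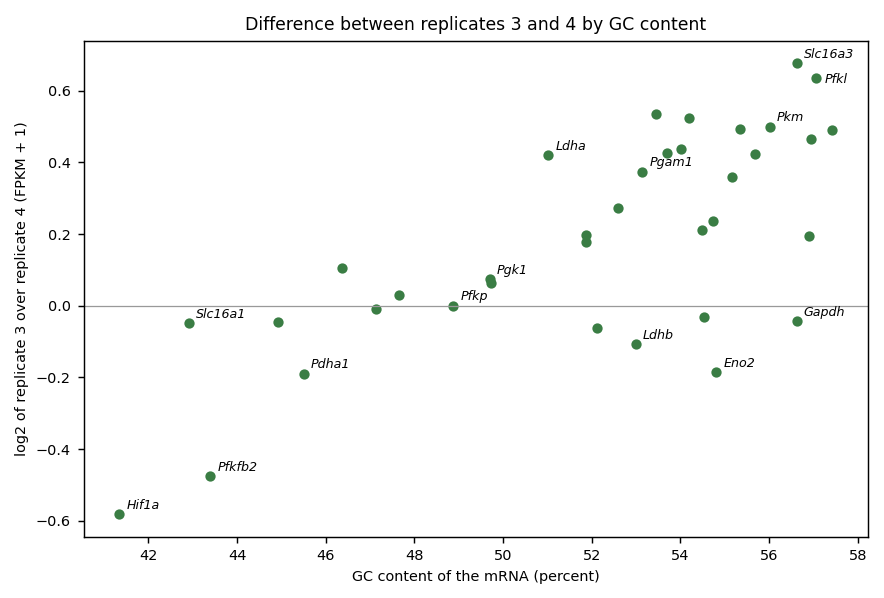
Log2 ratio of replicate 3 over replicate 4 (y axis, FPKM + 1) against the GC content of the mRNA (x axis, percent) for the 36 genes at 1 FPKM or more in all replicates, with 1 point per gene. The ratio rises from -0.58 for *Hif1a* to above 0.6 for *Pfkl* and *Slc16a3*, with *Gapdh* and *Eno2* below 0 at a high GC content. The level of *Gapdh* is uncertain because its coding sequence is shared.

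The abundant enzymes varied more between replicates than other genes of their level. The median coefficient of variation over 3 replicates was 16.5% in the 12 genes with a mean from 100 to 2000 FPKM, with a range of 9.61% to 21.7%, compared with 10.8% over all genes of that level. It was 6.64% in the 13 genes from 10 to 100 FPKM and 7.66% in the 11 from 1 to 10 FPKM, compared with 10.4% and 13.1% over all genes. Some ratios within a library varied less, as for *Aldoa* over *Eno1* at 1.76 ± 0.044 and *Aldoa* over *Hk1* at 10.2 ± 0.36 (SD, n = 3). Others varied as much as or more than the single genes, with a coefficient of variation of 18.5% for *Ldha* over *Ldhb*, 21.7% for *Pfkl* over *Pfkp*, 24.3% for *Eno1* over *Eno2* and 40.2% for *Slc16a1* over *Slc16a3*.

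Most of the genes had CpG-rich sequence around a transcript start. RefSeq windows of 300 bases (250 before and 50 after a start, GRCm38.p6) were matched for 42 of the 44 genes, and *Slc2a3* and *Slc2a4* were not matched. A window was called CpG-rich at a GC content of at least 50% and an observed over expected CpG ratio of at least 0.6, and a gene counted if any of its windows passed. This was so for 31 of 42 genes (73.8%), compared with 36.0% of 27025 genes. It held for 30 of 36 genes at 1 FPKM or more, for all 12 at 100 FPKM or more, and for 1 of 6 below 1 FPKM, which was *Pfkfb1*. The shares over all genes at these levels were not counted, so these counts cannot tell the listed genes from other genes of like level. The window of *Tpi1* (chr6:124814109-124814408, minus strand) held 15 CpG at a ratio of 0.625, and that of *Pgam2* (chr11:5803747-5804046, minus strand) held 1 at 0.0469. Both are printed 5′ to 3′ as an example of an abundant and an undetected enzyme, and capitals mark CpG.
Tpi1: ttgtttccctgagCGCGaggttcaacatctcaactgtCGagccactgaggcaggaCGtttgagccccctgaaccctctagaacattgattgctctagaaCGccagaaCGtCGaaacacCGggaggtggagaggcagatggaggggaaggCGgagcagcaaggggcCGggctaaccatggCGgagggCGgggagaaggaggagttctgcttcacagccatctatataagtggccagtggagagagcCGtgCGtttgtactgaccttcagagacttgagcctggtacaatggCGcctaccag
Pgam2: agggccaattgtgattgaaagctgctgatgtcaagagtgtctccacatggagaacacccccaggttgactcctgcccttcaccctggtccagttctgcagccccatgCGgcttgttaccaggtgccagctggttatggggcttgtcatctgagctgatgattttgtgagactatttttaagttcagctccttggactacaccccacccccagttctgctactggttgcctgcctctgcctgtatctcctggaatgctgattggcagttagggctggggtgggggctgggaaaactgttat

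Short motifs were counted in the same windows on both strands. The hypoxia response core ACGTG was present in 22 of 42 genes (52.4%), compared with 21.8% of all genes, and ACGTG or GCGTG in 36 of 42 (85.7%), compared with 46.7%. The E-box CACGTG, which contains ACGTG on both strands, was present in 7 of 42 (16.7%, compared with 8.09%), with 2 in a window of *Ldha*. The palindrome GCCNNNGGC, bound by TFAP2 factors, was present in 14 of 42 (33.3%, compared with 18.5%). Among the 12 genes at 100 FPKM or more, the hypoxia response core was present in 5 (41.7%) and either hypoxia string in 10 (83.3%). The E-box was present in 1 of these 12 (8.33%) and the palindrome in 6 (50%). The shares over all genes at 100 FPKM or more were not counted. Genes with several windows had more chances to hold a motif, and a match is a string of letters, not a site in use. The hypoxia strings and the E-box also contain a CpG, and CpG-rich windows were more frequent here (73.8%, compared with 36.0%). The part of base composition in the motif counts was not tested.

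**Figure D5:**
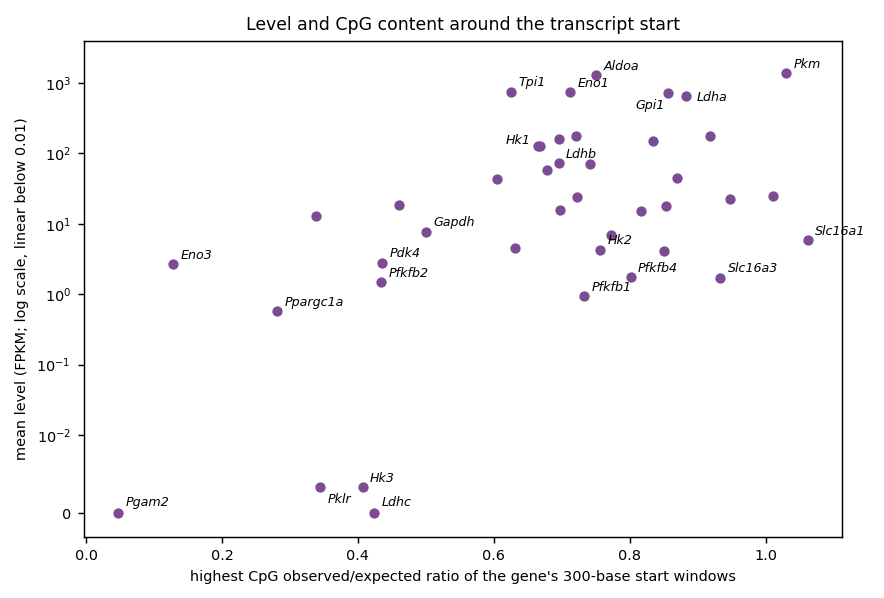
Mean level (y axis, FPKM on a log scale that turns linear below 0.01) against the highest observed over expected CpG ratio among the 300-base start windows of a gene (x axis), with 1 point for each of 42 genes. *Pgam2*, *Ldhc*, *Pklr* and *Hk3*, at or near 0 FPKM, lie below a ratio of 0.5, while *Pkm*, *Aldoa*, *Tpi1*, *Eno1*, *Gpi1* and *Ldha* lie above 0.6. Genes at 1 FPKM or more also lie below 0.6, namely *Gapdh*, *Pfkm*, *Aldoc*, *Pdk4*, *Pfkfb2* and *Eno3*. The highest ratio is that of *Slc16a1*, 1.06 at a mean of 5.87 FPKM. Other genes of like level are not drawn.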

How the data were processed

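RNA-seq values of 3 melan-a replicates were analysed. The authors deposited FPKM per Ensembl gene, with TMM scaling between libraries. Per the submitters' processing notes, CASAVA 1.8.2, STAR 2.3.0e, SAMtools, HTSeq 0.5.3p3, edgeR and mm9 were used, and per the methods 10 bases were trimmed from each read. The conversion to FPKM and the counting settings are not given in the sources used here. Raw counts were not used. Positions came from an earlier Ensembl annotation of the same build, in which 374 genes of the files are missing.

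The members and lists were chosen with earlier results of these data known. All 44 members were named. Other pathway genes were named at a mean of at least 20 FPKM or above the leading member of their step, while examples at 0, *Col1a1*, *Rpia*, *Rpe* and copy genes were chosen after their values were seen. Library size was estimated as the value at which low FPKM of genes with 1 transcript gave whole reads, at a mean distance of 0.0502 to 0.0633 reads, from 124, 136 and 76 genes. In genes with several transcripts the summed length of all exons came closest to whole reads and was used as the gene length. A level was called measurable at 3 reads, for counting error only. Isozyme shares are of summed FPKM within a replicate. Log ratios used a pseudocount of 1 FPKM, which understates the change of low genes. Copies were searched as words of 50 and 90 bases on both strands, outside the gene itself.

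Alternatives were each replicate left out, means or medians over replicates, rescaling to a sum of 1000000, members above 0 only, further isozymes, the longest transcript as length, and a pseudocount of 0.1 or none. Scaling to the unique part of the mRNA was added after the low levels of *Gapdh*, *Pgk1* and *Pgam1* were seen. Scripts were tested on simulated data. Python 3.11.15, numpy 2.4.6, pandas 2.3.3 and matplotlib 3.10.9 were used.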

Additional observations from a re-analysis of the deposited data

How the results depend on the processing

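No paired analysis was possible because all samples belong to 1 group. No log2 ratio between isozymes changed sign at any of the 11 steps under the pseudocounts tried, but 10 of these values moved by more than 1 SD. *Slc2a1* over *Slc2a3* went from 5.38 to 8.08 with a pseudocount of 0.1 and to 9.54 with none, and *Pkm* over *Pklr* from 10.42 to 13.70 with 0.1, so ratios to genes near 0 depend on the pseudocount. The median level of the 44 genes moved from 16.8 FPKM to 44.7 after rescaling each replicate to a sum of 1000000, to 20.5 with genes above 0 only, and to 18.2 when scaled to the unique part of the mRNA with words of either 50 or 90 bases. Leaving out 1 replicate each moved it between 16.8 FPKM and 17.5 FPKM, the latter without replicate 3. With the longest transcript as length, the share of *Hk1* was 98.2%, *Pfkl* 57.4%, *Aldoa* 99.3%, *Eno1* 99.5%, *Ldha* 92.6% and *Pdk3* 46.9%. With further isozymes added, *Slc2a1* fell to 72.6% and *Hk1* to 85.5%, where *Slc2a8* (9.71, 11.7 and 7.46 FPKM) and *Adpgk* (16.6, 17.9 and 15.7 FPKM), named after their values were seen, were the largest additions. Scaling to the unique part moved *Aldoa* to 99.1% with 50-base words and *Eno1* to 99.7% with 50-base and 99.6% with 90-base words. Among the other 108 values under alternatives, shares and median levels moved by less than 1 SD of the replicates, and counts by less than 1.5 times. The largest move of a count was at 100 FPKM or more, from 12 to 17 after rescaling. The median coefficient of variation has no value per replicate and so no such SD. It went from 9.41% to 9.12% after rescaling and to 13.6% with genes of any mean above 0. The lowest levels rest on few reads and on values rounded to 2 decimals, so the orders of *Slc2a3* and *Slc2a4* and of *Hk3* and *Pklr* are not resolved.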
